A study of Mus musculus with 2 samples.

Results

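Guanylate-binding proteins (GBPs) and immunity-related GTPases (IRGs) were examined as a group of 10 genes, Gbp2, Gbp3, Gbp5, Gbp6, Gbp7, Iigp1, Irgm1, Irgm2, Igtp and Ifi47. They were found by gene symbol among the probe sets of an Affymetrix mouse array, where a probe set is a group of short probes that together measure a transcript. Of the 10 genes, 9 had at least 1 probe set with that symbol alone, and these made up 13 of the 34945 probe sets with a single gene symbol. Gbp5 had none, so its expression was not analysed here. The group was proposed because its genes had lower values after Cre in earlier results of these same data, so the difference between the arrays is given as a description and was not tested.

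The cells were primary endothelial cells, the lining cells of blood vessels, cultured from C57/BL6 mouse embryos at E10.5, in mid-gestation. Both groups carried the floxed allele Snail1f/f, and both were infected with an adenovirus and then left to recover for several days. The WT cells received adeno-βGal, a virus that carries β-galactosidase, and the Snail1 KO cells received adeno-Cre, a virus that carries the Cre recombinase. Medium with 20% fetal bovine serum and a cocktail of endothelial growth factors was used. The comparison asks which transcripts differ once Snail1, a zinc finger repressor best known for silencing epithelial genes, has been deleted. Each group was a single array, so no value has a replicate error, and the number of arrays limits the precision. No array held cells without a virus, or cells given Cre that lacked the floxed allele, so loss of Snail1, the choice of virus and Cre itself cannot be told apart. The labels give neither the promoter that drives Cre nor the number of embryos or cultures behind an array.

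GBPs and IRGs are GTP-hydrolysing proteins of cell-autonomous immunity, the defence a cell mounts inside itself. Their genes are switched on by interferons, and the proteins gather on vacuoles that hold intracellular parasites or bacteria and break them open. In mice the IRG proteins of the IRGM subfamily (Irgm1, Irgm2 and Igtp, which is also called Irgm3) sit on the cell's own membranes and hold the effector IRG proteins inactive there, while effectors such as Iigp1 (also called Irga6) load onto the vacuole. Endothelial cells are among the many cell types outside the blood lineage that make both families when interferon is present.

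Snai1, the gene targeted by Cre, was at a log2 expression value of 5.33 on the WT array and 3.59 on the Snail1 KO array. The latter is below 3.97, the level used here as a filter on low values, so the measured size, 3.35-fold lower, is not exact. The labels do not say which exons are floxed, so it is not known whether its probe set lies inside the deleted part. The 4 control probe sets for the Cre gene itself ranged from 2.69 to 3.83 in WT cells and from 11.87 to 12.86 in Snail1 KO cells. The endothelial cadherin Cdh5 was at 11.34 and 11.46 in its brightest probe set and the adhesion molecule Pecam1 at 10.18 and 10.22. All values below are log2 expression values made with RMA, a method that corrects background and brings the arrays to a common distribution, and each difference subtracts the WT value from the Snail1 KO value.

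All 4 measured GBP genes had their lower value on the Snail1 KO array, by 2.31-fold to 4.03-fold. Gbp2, whose protein coats the vacuole of Toxoplasma, was at 8.82 on the WT array and 7.47 on the Snail1 KO array in one probe set (1418240_at), and at 9.14 and 7.59 in the other (1435906_x_at). Both probe sets of Gbp2 thus showed the same side, with differences of -1.35 and -1.55. Gbp3, a GBP of the same gene cluster, was measured by a single probe set (1418392_a_at), at 10.30 on the WT array and 8.41 on the other, which is 3.71-fold lower. Gbp7, which has been tied to the delivery of oxidase and autophagy components to vacuoles, was at 9.26 and 7.94 in one probe set (1425156_at) and at 9.49 and 8.28 in the other (1434380_at). Its 2 differences, -1.32 and -1.21, were the closest pair among the 4 genes that had 2 probe sets. Gbp6, a member of the other GBP cluster, was at 5.94 and 4.51 in one probe set (1438676_at) and at 7.77 and 5.76 in the other (1447927_at). The probe sets of Gbp6 gave the widest gap, 0.58 log2 units, so its size lay between 2.70-fold and 4.03-fold lower. GBP genes are close copies of each other. Separately, 3 of the 13 member probe sets can bind several transcripts, namely those of Gbp2, Gbp3 and Iigp1 with _a or _x in the ID.

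The windows just before the annotated starts of Gbp2, Gbp3 and Gbp7 are shown because each holds a match to the core of the interferon-stimulated response element (ISRE), the site of interferon regulatory factors and of the complex formed after type I interferon. The sequences run 5′ to 3′ from 120 bases upstream to 50 bases into the gene, from RefSeq on build GRCm38.p6. Capitals mark matches to the ISRE core (GAAANNGAAA, which reads TTTCNNTTTC from the other strand), to the core of the gamma-activated site (GAS, TTCNNNGAA), which STAT dimers bind after interferon-gamma, and to the kappa-B motif of NF-kB.
Gbp2, chr3:142620543-142620712, plus strand: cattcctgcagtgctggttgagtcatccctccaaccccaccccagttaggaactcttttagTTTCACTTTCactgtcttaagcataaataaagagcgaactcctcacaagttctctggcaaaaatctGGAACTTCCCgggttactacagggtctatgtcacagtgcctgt
Gbp3, chr3:142559924-142560093, plus strand: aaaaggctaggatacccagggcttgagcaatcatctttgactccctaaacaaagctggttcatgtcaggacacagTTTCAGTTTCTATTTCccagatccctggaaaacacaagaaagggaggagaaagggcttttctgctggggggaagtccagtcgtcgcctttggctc
Gbp7, chr3:142530216-142530385, plus strand: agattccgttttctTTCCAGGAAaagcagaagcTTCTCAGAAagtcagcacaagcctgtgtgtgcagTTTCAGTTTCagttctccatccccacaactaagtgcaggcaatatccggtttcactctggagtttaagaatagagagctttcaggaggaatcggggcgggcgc
In Gbp2 the first run of capitals is the ISRE core, which begins 59 bases upstream of the start, and the second is a kappa-B match inside the gene. In Gbp3 there are 2 overlapping ISRE cores, which begin 45 and 39 bases upstream. In Gbp7 the ISRE core begins 53 bases upstream, behind 2 GAS cores at 106 and 87. RefSeq gives Gbp3 a further start, whose window held none of the motifs searched.

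All 5 IRG genes were lower as well, and Iigp1 differed most of all the members. Iigp1, the effector that loads onto vacuoles, was at 9.21 on the WT array and 5.89 on the Snail1 KO array in one probe set (1419042_at) and at 10.39 and 7.49 in the other (1419043_a_at). The differences were -3.32 and -2.91, the latter 7.49-fold lower, and both probe sets were designed on the same transcript sequence. Ifi47, another effector-type IRG also called Irgd, was at 8.47 and 7.25, 2.34-fold lower, in its only probe set (1417292_at). The 3 IRGM genes lay closer together than the 2 effectors. Irgm1, needed in mice for resistance to mycobacteria and for autophagy, was at 10.42 and 8.95 (1418825_at), a difference of -1.47. Igtp was at 9.81 and 8.27 (1417141_at), a difference of -1.54. Irgm2 was at 8.89 and 7.74 (1417793_at), a difference of -1.15, which cannot be set apart from those of Gbp7 (-1.21) and Ifi47 (-1.23). Every probe set of the 5 genes was thus lower on the Snail1 KO array.

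**Figure D1:**
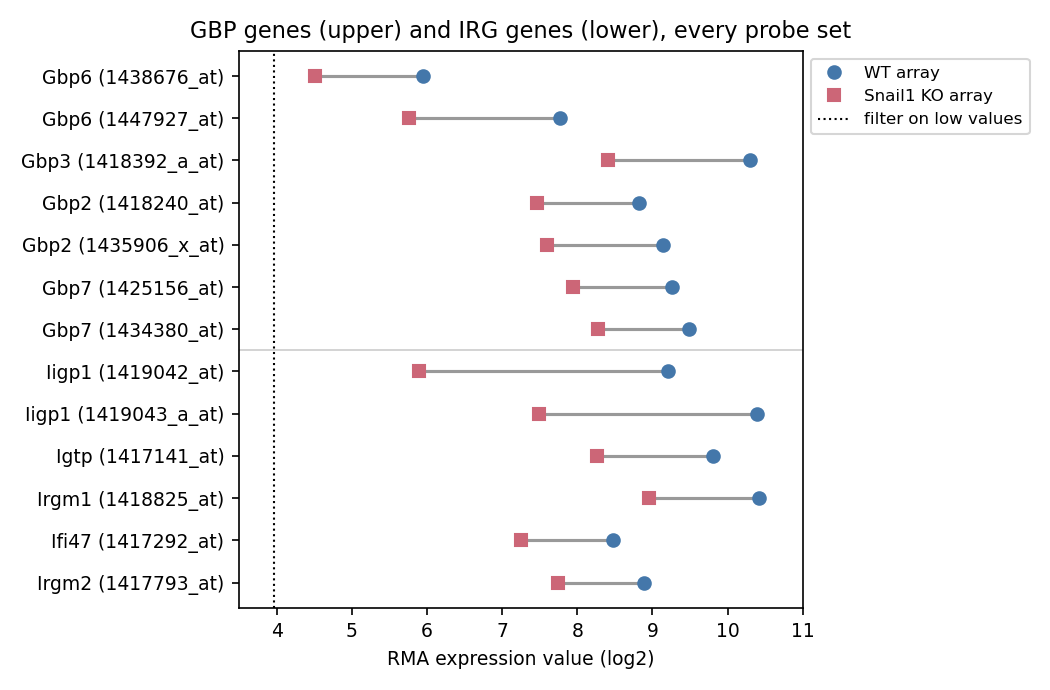
Log2 RMA values of the 13 probe sets on the WT array (circles) and the Snail1 KO array (squares), 1 array each, with GBP genes above and IRG genes below the grey line; the dotted line is the filter on low values at 3.97. Every square lies left of its circle and right of the dotted line, and the longest bars are those of Iigp1.

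The start regions of the IRG genes are shown for the near-copies Igtp and Irgm2, for Irgm1, and for Ifi47 as the measured member whose window held no match. The same build, span and capitals apply.
Igtp, chr11:58199436-58199605, plus strand: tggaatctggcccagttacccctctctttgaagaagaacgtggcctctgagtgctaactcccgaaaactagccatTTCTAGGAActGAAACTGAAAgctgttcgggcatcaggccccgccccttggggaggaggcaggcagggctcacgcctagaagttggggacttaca
Irgm2, chr11:58214857-58215026, plus strand: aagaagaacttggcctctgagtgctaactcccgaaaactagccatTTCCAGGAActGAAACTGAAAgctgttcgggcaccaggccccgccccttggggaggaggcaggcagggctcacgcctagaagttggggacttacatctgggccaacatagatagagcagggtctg
Irgm1, chr11:48871371-48871540, minus strand: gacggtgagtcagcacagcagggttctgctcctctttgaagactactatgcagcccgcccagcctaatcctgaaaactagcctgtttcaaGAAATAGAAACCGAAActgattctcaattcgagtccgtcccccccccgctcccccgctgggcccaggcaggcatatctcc
Ifi47, chr11:49076467-49076636, plus strand: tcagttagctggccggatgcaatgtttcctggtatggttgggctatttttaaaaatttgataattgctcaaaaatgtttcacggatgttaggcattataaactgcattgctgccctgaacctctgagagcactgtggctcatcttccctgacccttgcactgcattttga
Igtp and Irgm2 share a GAS core followed, 2 bases further on, by an ISRE core, which begins 34 bases upstream in Igtp and 64 in Irgm2. Their windows aligned over 265 bases, of which 244 (92.1%) were identical, the most identical bases of any of the 36 pairs of member windows. The next pair, Irgm1 with Irgm2, had 92 identical bases of 127. In Irgm1 the capitals are 2 overlapping ISRE cores that begin 30 and 24 bases upstream, with no GAS core. Igtp and Irgm2, each measured by 1 probe set, were 0.40 log2 units apart in their difference between the arrays. That gap was about the size of the SD between probe sets of the same gene (0.40).

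Over all 8 members with a start in the RefSeq table used here (Gbp6 and Iigp1 were not analysed for this), an ISRE core was found in 7 and a GAS core in 4. Within 100 bases upstream, the ISRE core was found in 6 and the GAS core in 4. Counted by window, of which Gbp3 has 2, these counts were the same but out of 9. Of the 32851 windows of the same length in the table, 3.44% held an ISRE core and 8.30% a GAS core, and 1.07% and 2.82% held one that began within those 100 bases. The kappa-B motif was found in Gbp2 and Gbp5, against 8.46% of all windows. The E-box bound by Snail proteins (CAGGTG or its reverse, CACCTG) was in none of the 9 member windows and in 20.2% of all windows. These are matches of letters in a window of 300 bases, not sites shown to be bound, and a window without a match says nothing of the factor. Gbp5, for which there is no expression value, held an ISRE core 165 bases upstream and GAS cores at 245 and 52.

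**Figure D2:**
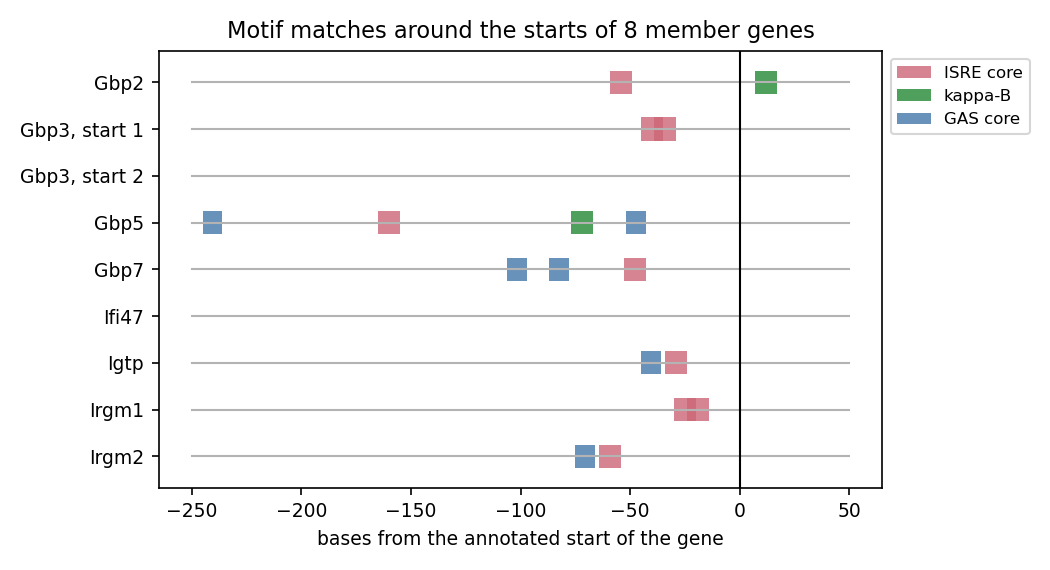
Matches to the ISRE core, the GAS core and the kappa-B motif in the windows from 250 bases before to 50 bases after the annotated starts of 8 member genes; the x axis is the distance in bases from the start and each box spans the matched bases. Boxes lie mostly within 100 bases upstream, and Ifi47 and the further start of Gbp3 have none.

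As a group, 13 of 13 member probe sets lay at least 2-fold below their WT value, a size reached by 1.05% of all probe sets with a single symbol. Counted by gene, with the brightest probe set of each and after a filter that kept 12874 genes with a mean above 3.97, 9 of 9 members were at least 2-fold lower, beside 1.84% of all genes, and none was 2-fold higher, beside 0.971%. At 3-fold these counts were 4 of 13 probe sets and 3 of 9 genes (Iigp1, Gbp6 and Gbp3), beside 0.363% and 0.699%, and at 1.5-fold they were 13 and 9, beside 4.26% and 6.08%. Because the group was chosen on this difference, nothing is read from these shares. The median difference was -1.54 over the 9 members and -0.008 over all genes. No member passed the filter through the WT array alone, since all 13 probe sets were above 3.97 on both arrays. Ordered from the lowest difference among the 12874 genes, Iigp1 was 10th, Gbp6 53rd, Gbp3 63rd, Gbp2 94th and Igtp 95th. Irgm1 followed at 106, Ifi47 at 166, Gbp7 at 173 and Irgm2 at 190. The median was -1.72 for the 4 GBP genes and -1.47 for the 5 IRG genes, and the ranges of both families overlapped.

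**Figure D3:**
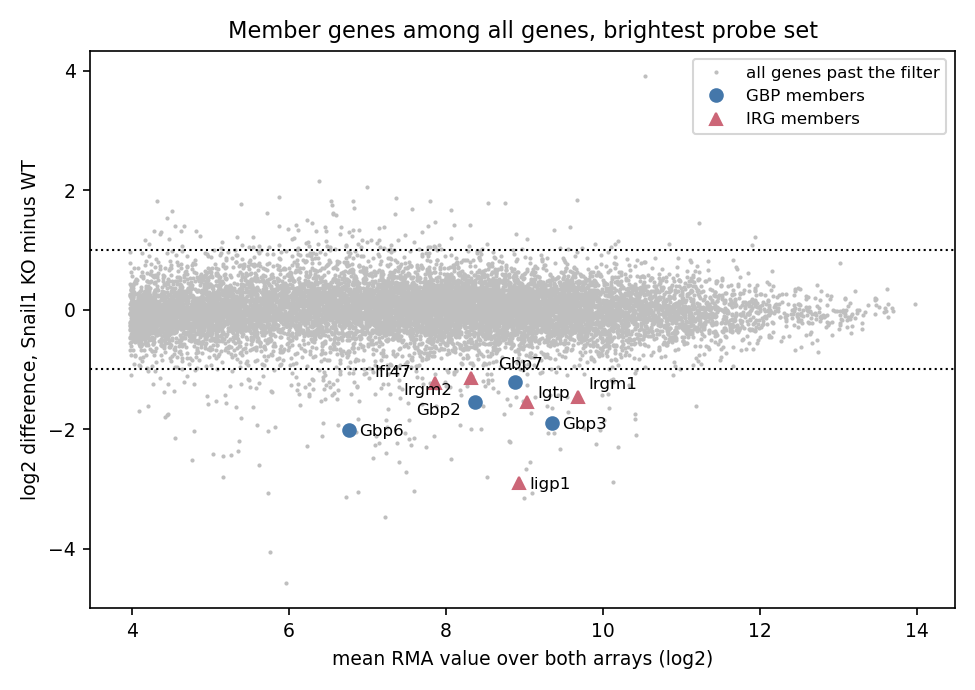
Difference between the arrays (log2, Snail1 KO minus WT) against the mean of both arrays (log2) for 12874 genes, with GBP members as circles and IRG members as triangles; dotted lines mark 2-fold. All 9 members lie below the lower dotted line, between -1.15 and -2.91.

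A pair of yardsticks for size come from the arrays themselves, and neither replaces replicate cultures. The robust SD of the difference over the 12874 genes was 0.32. Across 10436 further probe sets, the gap to the brightest one of the same gene had an SD of 0.40. The gaps within Gbp2 (0.20) and Gbp7 (0.11) were smaller than that, while those within Iigp1 (0.42) and Gbp6 (0.58) were larger. Neighbours in the order of members, such as Gbp2, Igtp and Irgm1 at -1.55, -1.54 and -1.47, therefore cannot be ranked. The measured RNA is that of a whole culture, in which fewer cells making a transcript and less of it per cell cannot be told apart.

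The members lie in 5 chromosomal groups with other genes of their families, which gives a comparison with genes next to them. For each group, the 2 nearest protein-coding genes on either side that passed the filter were taken, a choice made after the values had been seen. None of these 20 neighbours was 2-fold different, and their differences ran from -0.99 to 0.57 with a median of -0.12. Of all 12874 genes past the filter, 12512 lay within 2-fold as well, so nothing is read from this count. On chromosome 3, Gbp7, Gbp3 and Gbp2 lie in 1 run with Gbp5 and Gbp2b, between Pdlim5, a cytoskeletal adaptor, and Kyat3, an aminotransferase. Pdlim5 was the lowest neighbour, at 10.58 and 9.59, 1.99-fold lower, and Kyat3 was at 6.51 and 6.39. Gbp2b, which lies between Gbp3 and Gbp2, was at 3.01 and 2.72, below the filter on both arrays. On chromosome 5, Gbp6 lies beside Lrrc8c, a subunit of volume-regulated anion channels, at 8.47 and 7.76, while Gbp8 at the far end of the same GBP run was at 2.62 and 2.42. Abcg3, beyond Gbp8, differed by -0.53.

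The IRG genes fall into 3 groups. On chromosome 11, Irgm1 and Ifi47 are the outer genes of one run, and the ubiquitin ligase gene Trim41 beside Irgm1 differed by 0.02, while Btnl9, a butyrophilin-like gene beside Ifi47, differed by 0.51. Igtp and Irgm2 are direct neighbours in a separate run of the same chromosome, and Mrpl22, a mitochondrial ribosomal protein gene, differed by -0.35 on one side and Zfp692 by 0.12 on the other. On chromosome 18, Iigp1 shares its run with Gm4951, a gene model listed here among the inducible GTPases, which was at 6.92 and 4.32, 6.05-fold lower. Beyond Iigp1, Smim3 differed by -0.52 and Dctn4, a dynactin subunit gene, by 0.12. On the other side of the run, Isoc1 differed by -0.38 and Fbn2, a fibrillin gene, by -0.72. Among the measured genes of the 5 groups and their 20 neighbours, the 9 members and Gm4951 were past 2-fold, and Pdlim5 came closest to that size among the others.

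**Figure D4:**
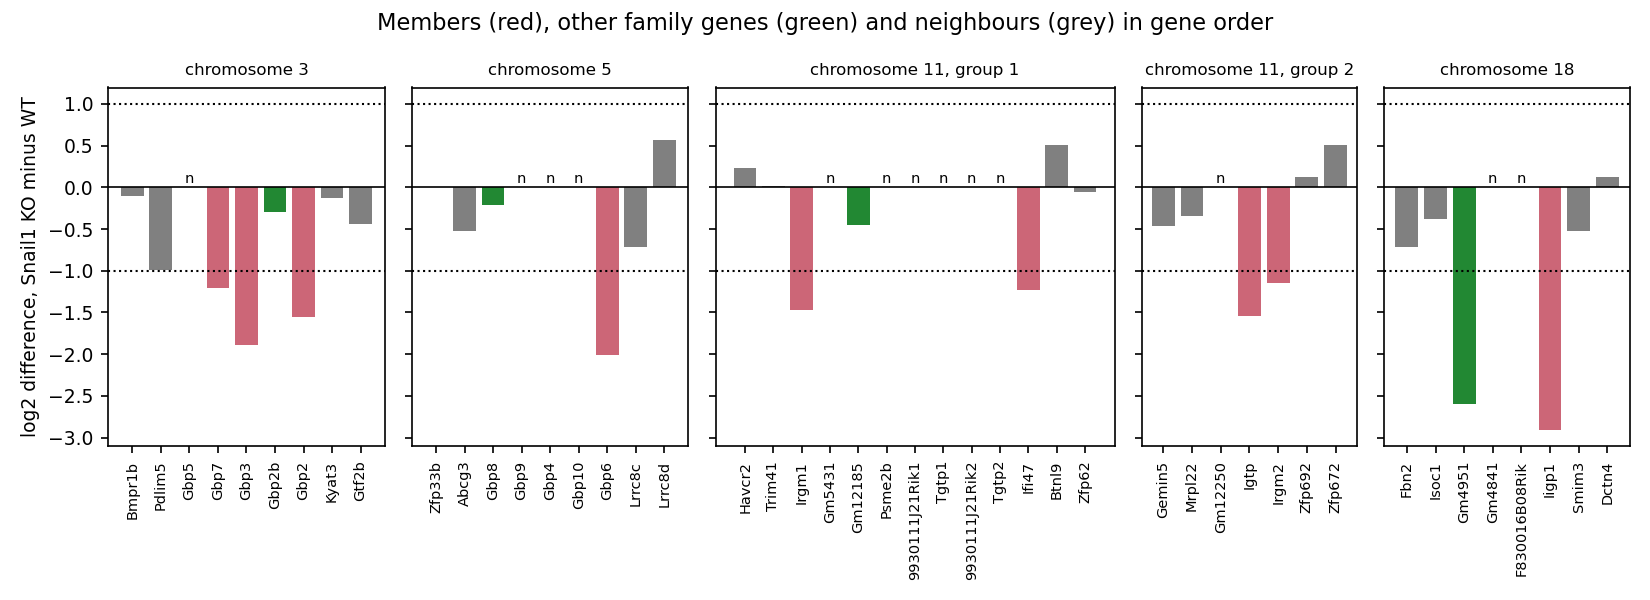
Difference between the arrays (log2, Snail1 KO minus WT) in the brightest probe set of each gene, in chromosomal order and not to distance, with members in red, other family genes in green and neighbours in grey; n marks a gene with no probe set of its own symbol alone, and dotted lines mark 2-fold. Gbp2b and Gbp8 are drawn although they were below the filter on low values. The red bars and the green bar of Gm4951 pass the lower dotted line, and no grey bar does.

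Further GTPases of these and related families were taken from a list of 22 genes, of which 8 had a probe set with that symbol alone and 5 passed the filter. Of the 5, 2 were 2-fold lower or more, and none was 2-fold higher, beside 1.84% and 0.971% of all genes. Beside Gm4951, Mx2, an antiviral dynamin-like GTPase, was at 6.22 and 5.11, 2.16-fold lower. Gm12185 differed by -0.45 and Irgc1, which in mice is expressed in the testis, by -0.22. Irgq, a divergent IRG-like protein, had differences of 0.05 and -0.42 in its 2 probe sets. Mx1, with a difference of -0.41, was below the filter on both arrays. GTPases of similar build but with duties in membrane traffic and mitochondria were taken as a further list. None of its 9 genes past the filter was 2-fold different, nor were 12512 of all 12874 genes, and the list median was 0.12. In this list Atl1, an atlastin that shapes the endoplasmic reticulum and belongs to the same superfamily as the GBPs, differed most, at 0.58.

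The interferon pathway upstream of the members was described by role. Of the ligands, Ifng was at 2.74 and 2.23 and Ifnb1 at 3.89 and 3.18, both below the filter on both arrays, and Ifna4 was at 4.25 and 3.90. None of the 5 ligand and receptor genes past the filter was 2-fold different, nor were 12512 of all 12874 genes. The interferon-gamma receptor chains Ifngr1 and Ifngr2 differed by -0.31 and -0.09 and the type I receptor chains Ifnar1 and Ifnar2 by 0.49 and 0.03, with further Ifnar2 probe sets at 0.44 and 0.50. The receptor-bound kinases Jak1, Jak2 and Tyk2 differed by 0.36, -0.02 and -0.001 in their brightest probe sets, and the other Jak1 probe sets by 0.07 and -0.29.

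Among kinases and transcription factors, 1 of 12 genes past the filter was at least 2-fold lower, beside 1.84% of all genes, and the list median was -0.12. That gene was Irf7, the regulator that amplifies type I interferon, at 10.36 and 7.69 on the WT and Snail1 KO arrays, 6.34-fold lower in a single probe set that can bind several transcripts. Stat2 and Irf9, which together take part in the complex that binds the ISRE, differed by -0.96 and -0.40, and a further Stat2 probe set by -0.43. Irf1, an activator of GBP genes in mice, differed by -0.43. Of the inhibitors, 1 of 5 was 2-fold lower, beside the same 1.84% of all genes. This was Usp18, an interferon-induced protease that dampens type I receptor signalling, at 10.97 and 8.95, 4.04-fold lower. The suppressor Socs1 was below the filter, at 3.67 and 3.51, and Ptpn2, a phosphatase acting on the kinases, differed by -0.41.

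Genes that act with or after the members at the vacuole were described last. The autophagy-related conjugation machinery helps place IRG and GBP proteins on vacuoles. Of its list 1 of 15 genes was at least 2-fold lower, beside 1.84% of all genes, with a list median of 0.17. The exception was Trim21, an antibody receptor and ubiquitin ligase, at 8.33 and 7.09 in its brightest probe set and 6.47 and 5.73 in the other. Trim21 was 2.36-fold and 1.68-fold lower in these, and the mean of both probe sets was within 2-fold. Becn1, Ulk1 and Sqstm1, which act in autophagy, differed by 0.40, 0.37 and 0.35. Of the inflammasome genes that GBPs act on, 1 of 7 was at least 2-fold lower, beside the same 1.84%. This was Casp4, the mouse caspase that senses bacterial lipopolysaccharide, at 7.36 and 5.87, 2.81-fold lower. Gsdmd, the pore-forming gasdermin, and Casp1 differed by -0.66 and -0.65, and Nlrp3 by -0.21.

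**Figure D5:**
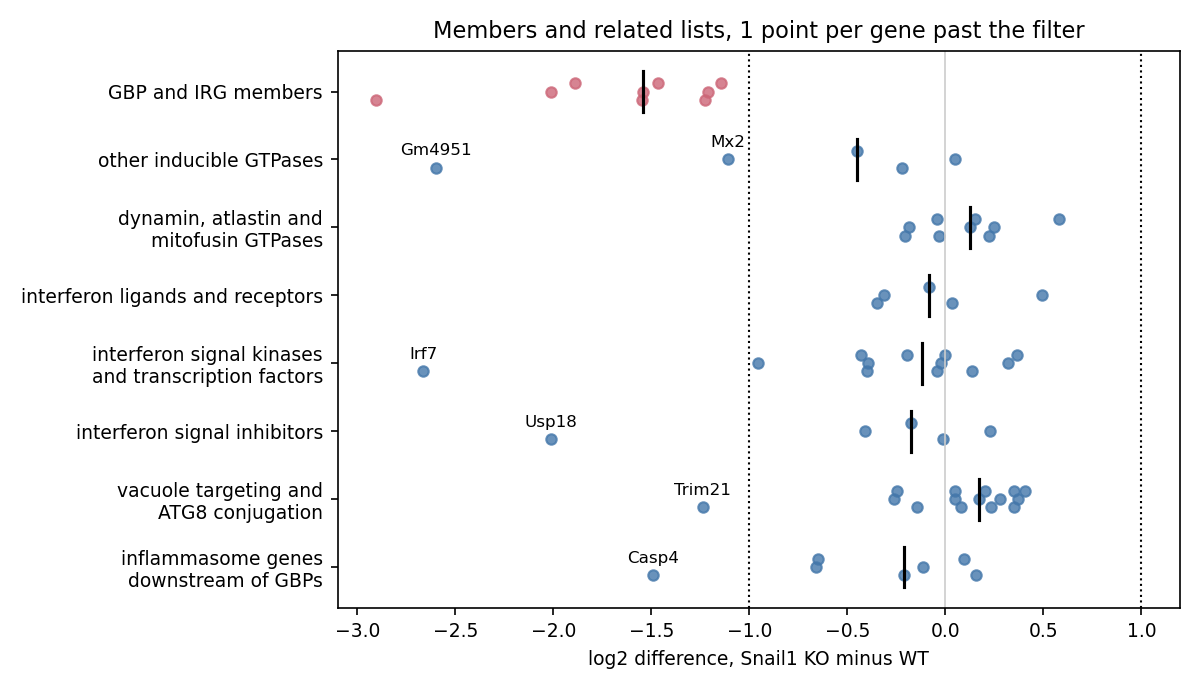
Difference between the arrays (log2, Snail1 KO minus WT) for each gene past the filter, in its brightest probe set, by list; black bars are list medians, dotted lines mark 2-fold, and genes outside the members that pass 2-fold are named. The members, which were chosen on this difference, lie below -1.1. Most genes of the other lists lie within 2-fold, as do 12512 of all 12874 genes past the filter.

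Markers of other cell types were set beside the members, since macrophages also make GBPs and IRGs. Of 14 leukocyte and macrophage markers, 13 had a probe set, and their summed level on the linear scale was 905 on the WT array and 849 on the Snail1 KO array. The leukocyte phosphatase Ptprc was at 2.96 and 3.29 in its brighter probe set, below the filter on both arrays, and the macrophage receptor Adgre1 was at 3.97 and 3.91, with a mean below it. The lysosomal protein Cd68 was at 7.27 and 7.20. One marker of this list was past 2-fold, Coro1a, which binds actin in blood cells, at 6.80 and 4.84. Without Coro1a, the other 12 leukocyte and macrophage markers summed to 794 and 820. Here and in the sums below, the markers left out are those past 2-fold. They were left out on their own difference, so nothing is read from how close the remaining sums lie. The summed level of the 11 mesenchymal and mural markers was 7035 and 4432, and that drop came mostly from Acta2, 3.60-fold lower, and Tagln, 5.83-fold lower. The other 9 markers of that list summed to 3772 and 3664, and the median difference over all 11 was 0.007. Among these 9, Col3a1 was at 7.33 and 6.33, a difference of -0.998, just within 2-fold. Thy1, the brightest of them and so the largest part of their sum, was at 11.43 and 11.37. Of this list's markers past the filter, Acta2 and Tagln included, 5 were lower and 4 higher. The 6 epithelial markers summed to 239 and 135, with Krt18 2.45-fold and Krt19 2.59-fold lower, and the other 4 to 79.1 and 71.9. The 10 endothelial markers summed to 27557 and 30187, and Cldn5, a tight junction protein, was 2.11-fold higher, while the other 9 summed to 24932 and 24640. Emcn, the brightest of the 10 and so the largest part of these sums, was at 13.36 and 12.96. By gene, 7 of the 10 were higher and 3 lower, with a median difference of 0.25. The part of these markers in the differences of the members was not tested.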

How the data were processed

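Each of 2 groups, read from the titles of the samples, held 1 array. The values the authors deposited are on the log2 scale, 1 for each probe set of an array, and come from RMA (affy package), per the submitters' processing notes. No version of either is given in the sources used here. RMA forces the arrays towards a common distribution, so a change in total mRNA cannot be seen, and it compresses differences of dim probe sets. No detection calls were used.

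GEO's platform annotation gave 1 symbol to 34945 of 45101 probe sets, several to 932 and none here to 9160, and 64 are controls. The members were matched by exact symbol, and the Entrez identifiers of all 13 member probe sets, which stand for 9 genes, matched RefSeq's GRCm38.p6 table. The probe set with the highest mean stood for a gene, and the filter kept means above the 40th percentile, 3.97. With 1 array per group no test was possible, so genes were counted by size, at 2-fold. Counting by size was checked on simulated data. Members and lists were chosen with earlier results of these data known. Named genes are all members, those past 2-fold and up to 4 with the largest difference in each list, and a short set of pathway and marker genes, while neighbouring genes were chosen after their values were seen. Promoter windows are RefSeq's, in gene orientation: in all 1891 overlapping pairs on opposite strands the bases matched once turned. Motifs were searched on both strands, overlaps included. Windows were aligned locally with Biopython 1.88 (match 1, mismatch -1, gap -3, extension -0.5). Tables were made with pandas 2.3.3 under Python 3.11.15. The alternatives were other filters, other sizes, the mean of all probe sets, leaving out probe sets that can bind several transcripts, and centring each array. Protein features were not analysed here.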

Additional observations from a re-analysis of the deposited data

How the results depend on the processing

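The counts of members did not change with the filter on low values (none, or the 60th percentile), with a gene's probe sets averaged, or with each array centred on its median: 9 of 9 genes were at least 2-fold lower under each. The median of the members ran from -1.41, over 8 genes without probe sets that can bind several transcripts, to -1.58 with centred arrays. Iigp1 moved to -3.32 where such probe sets were left out, and Gbp3 has no other kind. At 3-fold, 3 member genes and 4 member probe sets were past the size, beside 90 lower and 23 higher genes of all. At 1.5-fold the members stayed at 9 genes, beside 783 lower and 652 higher. Averaging the probe sets of each gene left 77 genes 2-fold higher, against 125. Of the lists, the kinases and transcription factors had 0 of 7 genes 2-fold lower without probe sets that can bind several transcripts, against 1 of 12. Irf7 had no other kind of probe set, so it left the count. The further inducible GTPases had 1 of 2 with the filter at the 60th percentile, against 2 of 5, as fewer genes passed. The vacuole list had 0 of 15 after averaging, against 1 of 15. The settings themselves set these sizes and gene numbers. No paired analysis was possible because each group holds 1 array, and for the same reason no array could be left out. No order between members closer than the gap between probe sets of a gene can be drawn from these arrays.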

Other observations

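Of the probe sets annotated to several genes, 3 carry symbols of 2 genes of these GTPase families each, and none can be assigned to a gene. Their log2 values were 11.79 on the WT array and 9.55 on the Snail1 KO array (a difference of -2.24), 12.07 and 10.88 (-1.19), and 4.82 and 4.63 (-0.20). The first 2 were lower by 4.72-fold and 2.27-fold, sizes like those of the members, and they are outside every count above.

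Family genes with a start region like that of the members did not all have a value like theirs. Gbp2b, at 3.01 and 2.72, was below the filter on both arrays and held an ISRE core 137 bases upstream of its start. Among Gbp2b, Gm12185 and Irgq, only Gbp2b held the Snail-type E-box, 21 bases upstream, a motif in 20.2% of all windows. Gm12185, at 4.88 and 4.43, held a GAS core and an ISRE core 86 and 75 bases upstream, and Igtp and Irgm2 also hold both cores. Gbp2b and Gm12185 were dimmer than any member on the WT array, and RMA compresses differences of dim probe sets. Irgq held none of the 4 motifs. These genes were picked out after their values were seen.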
